A study of Mus musculus with 9 samples.

Results

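The annexins are calcium-dependent membrane proteins, and 8 of their genes, Anxa1, Anxa2, Anxa3, Anxa4, Anxa5, Anxa6, Anxa7 and Anxa11, were followed in the embryonic mouse cochlear duct with and without Prdm16. They were taken by name from the 12 annexin genes among the 54232 Ensembl genes of the count files, through Ensembl identifier and mouse symbol. The members were chosen by their counts in all 9 libraries, across the 3 genotypes, so their values and calls below are a description of these libraries. Each library held RNA from the cochlear ducts of both inner ears of 1 embryo at E14.5. There were 3 libraries each of WT (Prdm16 +/+), Prdm16 cGT heterozygote (cGT/+) and Prdm16 cGT null (cGT/cGT) littermates on the FVB/NJ background, from crosses of heterozygotes. The cGT allele is a gene trap carried in every cell of the embryo, so the change of genotype is not limited to the duct. Comparing the genotypes asked which transcripts of the duct differ when 1 or both working copies of Prdm16, a transcriptional regulator present in Kölliker's organ, are missing.

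Annexins share a core of repeated helical domains that lets them dock on acidic phospholipids when calcium rises at a membrane. They differ in a short amino-terminal tail, which for several of them binds an S100 or related calcium-binding protein, and they are known for work in vesicle traffic, membrane repair, the link between membrane and actin, and the shielding of exposed phosphatidylserine. Kölliker's organ, the prosensory domain, the outer sulcus and the roof are the epithelial regions of the duct at this stage, and a bulk library adds them together. Fewer cells of a type and less RNA per cell therefore cannot be told apart in any value below.

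The start regions of 3 members are shown because these genes gave the main contrast, Anxa5 and Anxa2 with the largest null against WT differences above 0 and Anxa4 as an annexin with close means in all genotypes. The sequences are RefSeq's for build GRCm38.p6, read 5′ to 3′ on the strand of the gene and stopped before the first annotated transcribed base. Anxa5 is printed from chr3:36475895-36476137 on the minus strand (243 bases), Anxa4 from chr6:86793585-86793834 on the minus strand (250 bases) and Anxa2 from chr9:69453433-69453619 on the plus strand (187 bases). Capitals mark matches to the motifs described after them.
Anxa5: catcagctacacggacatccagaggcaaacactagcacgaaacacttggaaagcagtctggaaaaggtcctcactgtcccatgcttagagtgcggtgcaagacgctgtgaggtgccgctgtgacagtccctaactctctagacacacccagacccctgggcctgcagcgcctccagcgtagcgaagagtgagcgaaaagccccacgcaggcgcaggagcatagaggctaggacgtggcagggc
Anxa4: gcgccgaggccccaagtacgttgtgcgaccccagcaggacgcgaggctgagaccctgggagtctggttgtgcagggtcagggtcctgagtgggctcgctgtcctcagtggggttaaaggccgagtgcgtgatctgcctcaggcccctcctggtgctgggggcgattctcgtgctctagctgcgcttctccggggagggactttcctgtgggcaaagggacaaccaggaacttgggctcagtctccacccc
Anxa2: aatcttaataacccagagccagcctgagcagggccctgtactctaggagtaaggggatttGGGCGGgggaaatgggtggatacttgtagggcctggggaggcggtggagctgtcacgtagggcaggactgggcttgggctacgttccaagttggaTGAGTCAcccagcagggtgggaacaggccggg
Short motifs were searched on both strands in windows of 300 bases around each RefSeq start. The letters of the TATA box were TATAAA. The CCAAT box was searched by the letters of its name. The letters of the GC box were GGGCGG. The letters of the AP-1 site were TGANTCA, with N for any base. No motif of the 4 was found in the Anxa5 window, which has 60.3% GC and 16 CpG. The Anxa2 window has 63.7% GC and held 1 TATA box, 3 GC boxes and 1 AP-1 site, of which the GC box starting at -190 and the AP-1 site starting at -95, counted from the RefSeq start, lie in the printed part. The first Anxa4 window has 65.3% GC and held 1 GC box, which lies past the printed part. Of all 32851 windows of this length, 13.6% held a TATA box, 37.4% a CCAAT box, 35.7% a GC box and 7.81% an AP-1 site, and the median GC content was 52.7%. Windows were found for 6 of the 8 members. A match is only a match of letters.

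Total counts ran from 24095322 to 30819118 per library, and 3 counts in a library, taken as the floor, corresponded to 0.0967 to 0.126 CPM (counts scaled to a common library size with TMM factors), and this floor covers counting error only. Prdm16 itself lay at 185 to 224 CPM in WT, 123 to 151 in heterozygote and 19.1 to 27.4 in null libraries, in the order of the labels. The duct epithelium markers Epcam, Cdh1, Pax2 and Gata3 were detected in every library, with sums of 1755 to 2318 CPM. WT 1, WT 2 and null 3 stood apart from the others in genes of surrounding tissue. The summed level of 7 mesenchyme genes was 389 CPM in WT 1, 775 in WT 2 and 1473 in null 3, against 33.2 to 94.0 in the other 6 libraries, with none of the 7 genes at 0 in any library. The summed level of 5 cartilage genes was 12821 CPM in null 3 and 5449 to 6436 elsewhere, and that of 5 endothelial genes 45.8 to 80.4 CPM in these 3 libraries against 2.03 to 5.54. Most of the cartilage sum was Col2a1, with a WT mean of 5124 CPM against 1.76 for Acan and 6.44 for Matn1. Acan held 30 to 61 counts in WT and 35 to 11975 in null libraries. How much of the Col2a1 RNA came from cartilage was not tested. Other markers differed between genotypes. The sum of 4 melanocyte genes was 61.1 to 139.9 CPM in WT, 27.9 to 47.1 in heterozygote and 18.6 to 50.3 in null libraries, and that of 5 red blood cell genes 65.2 to 188, 23.5 to 44.4 and 52.6 to 94.2 CPM. The sum of 5 macrophage genes was 2.89 to 14.8, 1.42 to 2.56 and 2.06 to 7.16 CPM, highest in WT 1, WT 2 and null 3. That of 5 Schwann and glia genes, nearly all Sox10 and Erbb3, was 1482 to 1579, 1623 to 1694 and 1407 to 1608 CPM. None of these passed the edgeR thresholds in heterozygote against WT. An unadjusted p under 0.05 was found for 3 of 4 melanocyte genes, all 3 red blood cell genes, 2 of 4 macrophage genes and 1 of 4 Schwann and glia genes tested. In null against WT, 0 of 4 melanocyte genes passed and 3 had an unadjusted p under 0.05. Of 4 neuron genes tested, only Stmn2 was called, as lower in heterozygote against WT (log2 fold change -1.42, edgeR adjusted p = 0.0107) and in null against WT (-2.96, edgeR adjusted p = 0.00343). The sum of 5 neuron genes overlapped, at 253 to 289 CPM in WT, 246 to 274 in heterozygote and 188 to 286 in null libraries. Nearly all of it was Isl1, with means of 247, 247 and 237 CPM, so this overlap describes Isl1 and not the list. In heterozygote against WT, Anxa3 and Pla2g4a were also lower without overlap, and the part of melanocytes, blood and macrophages in those values was not tested. Results were also taken from the 6 libraries with little mesenchyme signal (WT 3, the 3 heterozygotes, null 1 and null 2), an alternative chosen after the data were seen. None of the 7 mesenchyme genes passed the edgeR thresholds in any comparison, while 1 (null against WT), 6 (heterozygote against WT) and 3 (null against heterozygote) had an unadjusted p under 0.05.

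In WT ducts the annexins fell into a high and a low tier. Per kilobase of exon, Anxa5 was highest at 137 ± 1.26 CPM (SD, n = 3), and ranked at percentile 99.3 of the 17156 genes compared. Anxa2 followed at 77.9 ± 5.33 and Anxa6 at 75.0 ± 3.86 CPM per kilobase, at percentiles 98.0 and 97.9, and the WT ranges of this pair overlapped. The low tier began far below, with Anxa4 at 6.52 ± 0.376 and Anxa7 at 5.57 ± 0.262 CPM per kilobase. Anxa1 lay at 2.82 ± 0.930, Anxa11 at 2.03 ± 0.287 and Anxa3 at 0.591 ± 0.362 CPM per kilobase, the last at percentile 16.1. Only Anxa2 and Anxa6 overlapped among WT neighbours. The same order of means held in heterozygote and null ducts, and also when levels were divided by the longest transcript. In heterozygotes Anxa2 and Anxa6, and likewise Anxa1 and Anxa11, overlapped. In null ducts the high tier spread out, to 306 ± 51.0 CPM per kilobase for Anxa5, 130.4 ± 31.5 for Anxa2 and 83.8 ± 13.1 for Anxa6, and only Anxa4 and Anxa7 overlapped.

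**Figure D1:**
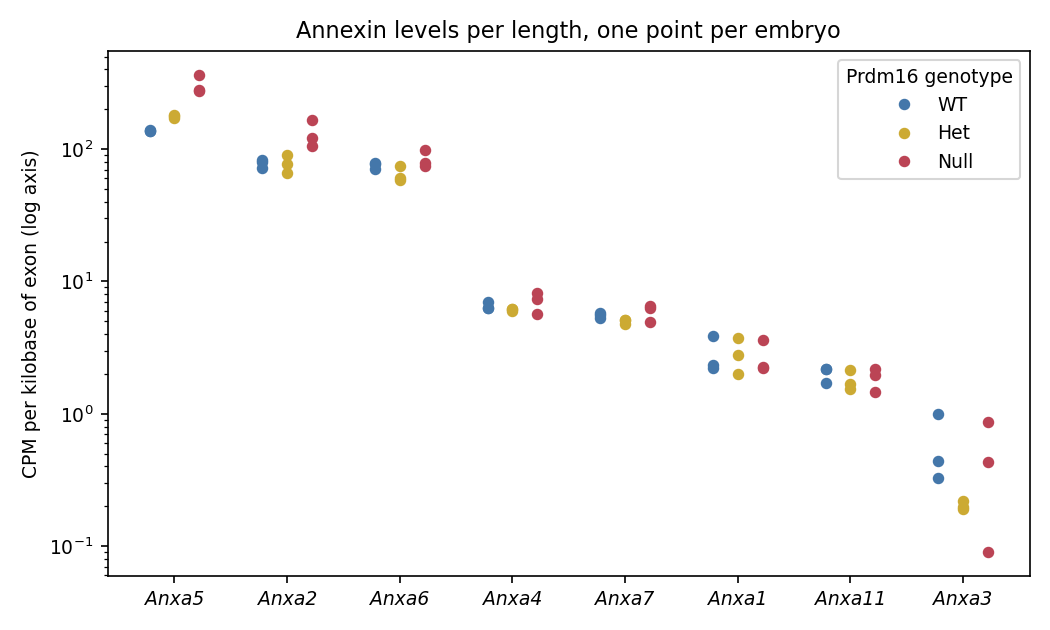
Level of each listed annexin in CPM per kilobase of exon (log axis) in every library, coloured by Prdm16 genotype, with genes in order of their WT mean. Anxa5, Anxa2 and Anxa6 form the high tier and Anxa3 is lowest, and the null points of Anxa5 and Anxa2 lie above their WT points.

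Among the 8 members, Anxa5 alone passed the thresholds between null and WT ducts. It rose to 2.24-fold of WT, and Anxa2 was 1.67-fold higher without passing, while the other 6 differed by log2 fold changes of -0.34 to 0.16. Calls required a Benjamini-Hochberg adjusted p under 0.05, over all genes tested by edgeR's quasi-likelihood test, and an absolute log2 fold change over 0.5. By this rule 1 of 8 members was called, and 1.71% of all 17168 genes tested were called (0.920% as higher and 0.786% as lower). The null and WT libraries did not overlap for 2 members, both higher in null, against 9.85% of all genes higher and 9.15% lower without overlap. The median log2 fold change of the 8 members was 0.10, and of all genes 0.01. Since these counts chose the members, nothing is read from these shares. All 8 members passed the filter on low counts in each comparison.

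Anxa5 (ENSMUSG00000027712, chr3:36448923-36475894 of mm10, minus strand), a phosphatidylserine-binding annexin widely used as a probe for dying cells and also known to bind type II collagen, had the largest null against WT fold change of the 8 and the least spread among WT libraries. Its level was 243, 241 and 246 CPM in WT 1, 2 and 3, then 304, 318 and 322 CPM for heterozygote 1, 2 and 3, and 495, 649 and 489 CPM for null 1, 2 and 3. The 3 genotypes formed separate steps with no overlap. The WT libraries varied by a coefficient of variation of 0.918%, less than counting error alone would give at 6131 to 7217 counts. This closeness is therefore not read as a trait of Anxa5. The means were 243 ± 2.23 CPM in WT, 315 ± 9.65 in heterozygote and 544 ± 90.6 in null ducts (SD, n = 3 each). Anxa5 had a log2 fold change of 1.16 in null against WT (SE 0.119, edgeR adjusted p = 0.00461), and stood at rank 46 by p among all genes tested. It was 0.38 higher in heterozygote against WT on the log2 scale (SE 0.0393, edgeR adjusted p = 0.0124, rank 4 by p), which is under the fold threshold and so is not a call. Null against heterozygote gave 0.79 (SE 0.116, edgeR adjusted p = 0.0318), a call. The heterozygote mean lay 23.8% of the way from the WT to the null mean.

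Anxa5 was also taken from the low-mesenchyme libraries, where WT 3 is the only WT library, so that the error and p against WT hold no spread between WT embryos and assume that it varies like the other group. With these libraries the log2 fold change of Anxa5 was 1.23 in null against WT (SE 0.283, edgeR adjusted p = 0.00174), 0.37 in heterozygote against WT (edgeR adjusted p = 0.0287) and 0.86 in null against heterozygote (edgeR adjusted p = 0.0100). The part of mesenchyme RNA in the Anxa5 values was not tested further. Leaving out each embryo in turn gave 1.02 to 1.24 for null against WT, a call in 6 of 6 fits. For null against heterozygote the call was lost without heterozygote 1, 2 or 3 (edgeR adjusted p of 0.205, 0.168 and 0.223), with log2 fold changes of 0.76, 0.80 and 0.81. For heterozygote against WT the adjusted p rose above 0.05 without WT 2 (0.0590), heterozygote 2 (0.0924) or heterozygote 3 (0.0911), and to 0.595 with all 9 libraries in one fit. The Kölliker's organ genes Fgf10 and Tecta fell in the null ducts, with a summed level of 1478 to 1743 CPM against 2742 to 3371 in WT, and both passed the thresholds. In heterozygotes their sum was 2622 to 3256 CPM, overlapping WT. Markers of the other duct regions are given beside these. The roof genes Fgf9, Otx1 and Otx2 summed to 271 to 320.0 CPM in WT, 327 to 356 in heterozygote and 355 to 433 in null libraries. The prosensory genes Sox2, Jag1 and Hey2 summed to 527 to 570.1, 626 to 667 and 594 to 784 CPM, so that heterozygote and null libraries overlapped in both lists and neither overlapped WT. The outer sulcus genes Bmp4 and Lmx1a summed to 475 to 568, 536 to 599 and 564 to 769 CPM, overlapping WT in both other genotypes, with 0 of 2 called and 1 of 2 with an unadjusted p under 0.05 in null against WT. In that comparison, 0 of 3 genes in each of the roof and prosensory lists passed the edgeR thresholds and 3 of 3 had an unadjusted p under 0.05. The part of these regions in the Anxa5 values was not tested.

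Anxa2 (ENSMUSG00000032231, chr9:69453620-69491795, plus strand), which pairs with S100a10 and links membranes to actin and to plasminogen activation, was higher in every null library than in every other. Its level was 307, 268 and 297 CPM in WT, 336, 247 and 287 CPM in heterozygote, and 392, 618 and 449.5 CPM in null ducts. WT and heterozygote libraries were interleaved, and null 2 stood highest for Anxa2 as it did for Anxa5. The log2 fold change of Anxa2 was 0.74 in null against WT (SE 0.162, edgeR adjusted p = 0.0782) and 0.74 in null against heterozygote (SE 0.176, edgeR adjusted p = 0.152), and neither passed. Heterozygotes had a fitted level of 100.1% of WT (SE 0.0977 on the log2 scale, edgeR adjusted p = 0.997). In contrast to Anxa5, the heterozygote libraries of Anxa2 thus showed no step, although this difference between the genes was not tested. The Anxa2 call depended on the tool, the filter and the libraries fitted together. For null against WT the adjusted p was 1.4e-04 with DESeq2, 0.00555 with edgeR and no filter on low counts and 0.0327 with all 9 libraries in one fit. For null against heterozygote it was 0.00104 with DESeq2 and 0.00387 with edgeR and no filter. Over the 6 fits that left out 1 embryo the edgeR adjusted p of Anxa2 was 0.0503 to 0.342 for null against WT. An antisense gene, Gm16144, shares 98 exonic bases with Anxa2 and held 35 to 126 counts, against 6820 to 19171 for Anxa2.

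**Figure D2:**
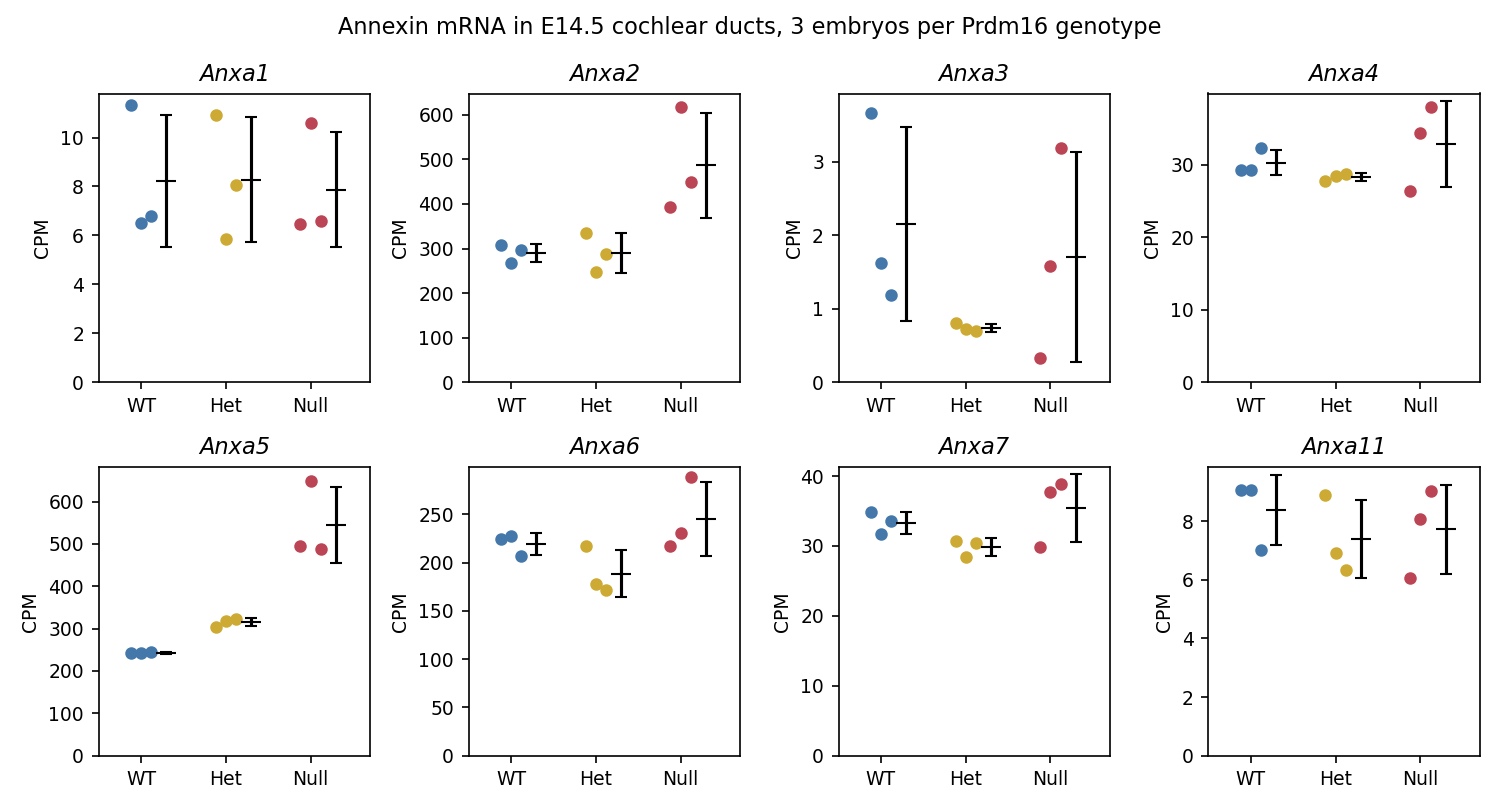
CPM of the 8 listed annexins in the 3 WT, 3 heterozygote and 3 null libraries (points), with the mean and SD of each genotype (bars), each axis starting at 0. Anxa5 climbs in steps from 243 to 315 to 544 CPM, Anxa2 is higher in null ducts alone, and null overlaps WT for the other 6 members.

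Anxa6 (ENSMUSG00000018340, chr11:54979108-55033445, minus strand), the member with a duplicated annexin core, which works at endosomes and the cell cortex, was the third gene of the high tier. Its level was 224, 228 and 207 CPM in WT, 217, 178 and 171 CPM in heterozygote and 217, 230.4 and 289 CPM in null ducts. The highest value came from null 3, the library with the most mesenchyme and cartilage RNA, and the part of that RNA in this value was not tested. The log2 fold change of Anxa6 was 0.16 in null against WT (SE 0.115, edgeR adjusted p = 0.641) and -0.22 in heterozygote against WT (SE 0.0829, edgeR adjusted p = 0.297). It was 0.38 in null against heterozygote (SE 0.134, edgeR adjusted p = 0.352), where the groups all but touched. Heterozygote 1 lay at 73.96 and null 1 at 74.02 CPM per kilobase. Their order reverses when counts are scaled by library size alone (5417 of 24767705 against 5257 of 24095322). Without null 3 these null values became 0.03 against WT and 0.24 against heterozygote.

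Anxa4 (ENSMUSG00000029994, chr6:86736840-86793584, minus strand), an annexin of secretory and other epithelia, and Anxa7 (ENSMUSG00000021814, chr14:20455260-20480133, minus strand), first known from the fusion of secretory granules, stayed within narrow ranges in WT and heterozygote ducts and spread more in null ducts. Anxa4 was at 29.2, 29.3 and 32.3 CPM in WT, 27.7, 28.5 and 28.8 CPM in heterozygote and 26.4, 34.3 and 38.0 CPM in null ducts. Anxa7 was at 34.8, 31.7 and 33.6 CPM in WT, 30.8, 28.4 and 30.4 CPM in heterozygote and 29.8, 37.7 and 38.8 CPM in null ducts. Both genes had every heterozygote library below every WT library, by a small margin, and a null range that enclosed WT. The wider null spread was not particular to them. Over all genes the fitted coefficient of variation between libraries was 0.224 in null against WT and 0.116 in heterozygote against WT. In null against WT, Anxa4 had a log2 fold change of 0.12 (SE 0.143, edgeR adjusted p = 0.792) and Anxa7 of 0.09 (SE 0.121, edgeR adjusted p = 0.822). In heterozygote against WT they were -0.09 (SE 0.0748, edgeR adjusted p = 0.658) and -0.16 (SE 0.0751, edgeR adjusted p = 0.417). Anxa4 shares 75 exonic bases with the antisense gene Gm44036, which held 2 to 13 counts.

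Anxa11 (ENSMUSG00000021866, chr14:25842156-25886804, plus strand), which binds the calcium sensor Pdcd6 and tethers RNA granules to lysosomes, had overlapping values in all 3 genotypes. They were 9.08, 9.05 and 7.01 CPM in WT, 8.88, 6.91 and 6.34 CPM in heterozygote and 6.06, 8.09 and 9.04 CPM in null ducts. The log2 fold change of Anxa11 in null against WT was -0.12 (SE 0.201, edgeR adjusted p = 0.855). Anxa11os, on the other strand, shares 113 exonic bases with it and held 0 to 4 counts.

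Anxa1 (ENSMUSG00000024659, chr19:20373428-20390944, minus strand), a ligand of formyl peptide receptors that helps to resolve inflammation, varied more between embryos than between genotypes. Its level was 11.3, 6.50 and 6.81 CPM in WT, 10.9, 5.83 and 8.06 CPM in heterozygote and 6.48, 10.6 and 6.57 CPM in null ducts. Each genotype had 1 library at 10.6 to 11.3 CPM and 2 lower ones, and the coefficient of variation was 33.0% in WT, 30.8% in heterozygote and 29.7% in null ducts. The log2 fold change in null against WT was -0.06 (SE 0.287, edgeR adjusted p = 0.952).

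Anxa3 (ENSMUSG00000029484, chr5:96793339-96845966, plus strand) was the least abundant of the 8 members, with 8 to 99 counts per library. Its level was 3.65, 1.61 and 1.19 CPM in WT, 0.800, 0.720 and 0.693 CPM in heterozygote and 0.330, 1.58 and 3.18 CPM in null ducts. The highest WT and null values were those of WT 1 and null 3, which also carried high endothelial and mesenchyme sums, while WT 2, with a larger mesenchyme sum than WT 1, was close to null 2, and the part of those cells in Anxa3 was not tested. All heterozygote libraries lay below all WT libraries, at a log2 fold change of -1.54 (SE 0.422, edgeR adjusted p = 0.144), and the value was -0.68 with the low-mesenchyme libraries only. Leaving out 1 embryo gave -1.83 (without WT 3, edgeR adjusted p = 0.0187, a call) to -0.91 (without WT 1, edgeR adjusted p = 0.294). Null against WT gave -0.34 (SE 0.714, edgeR adjusted p = 0.882) and changed sign without WT 1 (0.28) or null 1 (0.14). Null against heterozygote gave 1.19 (SE 0.651, edgeR adjusted p = 0.514), with 0.40 without null 3 and 1.68 without null 1, and the groups overlapped. Gm42603 overlaps 112 exonic bases on the same strand and held 0 to 5 counts.

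The other 4 annexins of the mouse had few counts. Anxa9, a divergent annexin, held 24 to 74 counts per library, with a mean of 0.803 CPM per kilobase in WT, 0.702 in heterozygote and 0.595 in null ducts, each above that of Anxa3. It had a log2 fold change of -0.43 in null against WT (SE 0.373, edgeR adjusted p = 0.706). Anxa9 shares 71 exonic bases with Mindy1 on the other strand and 94 with 6330562C20Rik on its own strand. The part of their reads in the Anxa9 counts was not tested. Anxa13 held 1 to 6 counts per library, and Anxa8 was at 0 except for 2 counts in heterozygote 3 and 8 in null 3. Anxa10 was at 0 in all 9 libraries, which allows up to 3 counts in each.

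Between heterozygote and WT ducts 0 of 8 members were called by edgeR, where 0.151% of all 17269 genes tested were (0.0521% as higher and 0.0984% as lower), and 3 members had an unadjusted p under 0.05 (Anxa5, Anxa3 and Anxa6), as had 13.1% of all genes. DESeq2 called 1 member, Anxa3, as lower, and 297 genes in all. Only Anxa5 was higher without overlap, against 8.46% of all genes, and 3 were lower without overlap (Anxa3, Anxa4 and Anxa7), against 9.50% of all genes. The median of the members was -0.12, with 0.00 for all genes. Between null and heterozygote ducts 1 of 8 members was called, Anxa5, where 0.615% of the 17067 genes tested were (0.293% as higher and 0.322% as lower). Anxa2, Anxa5 and Anxa6 were higher without overlap, against 9.24% of all genes, none was lower without overlap, against 8.84%, and the median of the members was 0.31, with 0.01 for all genes. For Anxa6 this holds with TMM factors only, since heterozygote 1 and null 1 change order with library size alone. These comparisons share libraries with null against WT, so their values are set side by side and are not separate evidence.

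**Figure D3:**
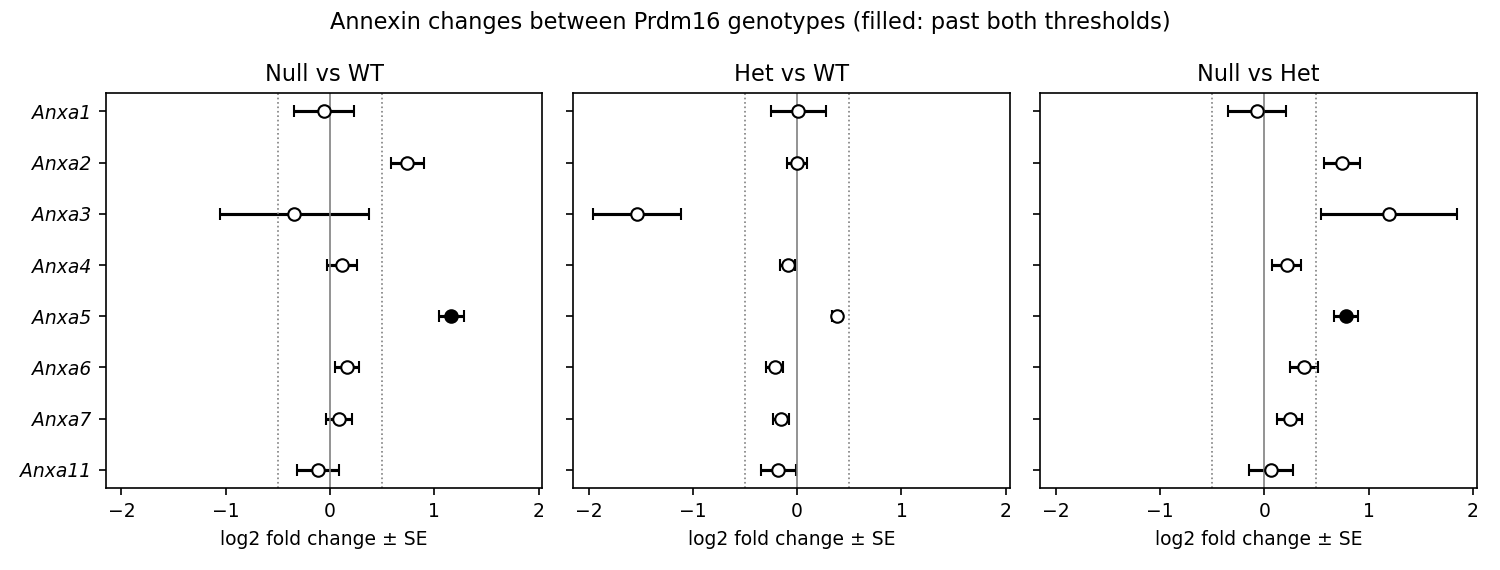
Log2 fold change ± SE of each listed annexin from edgeR in the 3 pairs of genotypes (3 against 3 libraries each), with dotted lines at the fold threshold of 0.5 and filled points for genes past both thresholds. Anxa5 is the only filled point, in null against WT (1.16) and null against heterozygote (0.79), and Anxa3 has the widest error.

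The make-up of the family was also read within each library, as ratios that do not depend on how libraries are scaled. The ratio of Anxa5 to Anxa6 counts was 1.08, 1.06 and 1.19 in WT, 1.40, 1.79 and 1.88 in heterozygote and 2.28, 2.82 and 1.69 in null libraries. Every heterozygote and null ratio was above every WT ratio, while null 3 fell among the heterozygotes. The ratio of Anxa5 to Anxa2 was 0.790, 0.899 and 0.828 in WT, 0.905, 1.29 and 1.12 in heterozygote and 1.26, 1.05 and 1.09 in null libraries. Here heterozygote and null libraries overlapped, and the lowest heterozygote lay just above the highest WT. Anxa5 made up 28.1% to 29.5% of all annexin counts in WT, 32.4% to 39.1% in heterozygote and 36.9% to 42.2% in null libraries, whereas the share of Anxa6 was 24.8% to 27.9%, 20.0% to 23.1% and 14.5% to 21.8%. The mean level of Anxa6 was 220 CPM in WT and 245 in null ducts, so its smaller null share does not mean a lower level. The 12 annexins summed to 863, 817 and 832 CPM in WT, 937, 815 and 856 CPM in heterozygote and 1175, 1591 and 1324 CPM in null ducts, so that the total was higher in each null library than in any other. Most of this difference was Anxa5 and Anxa2, with means of 243 and 291 CPM in WT and 544 and 487 in null ducts.

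**Figure D4:**
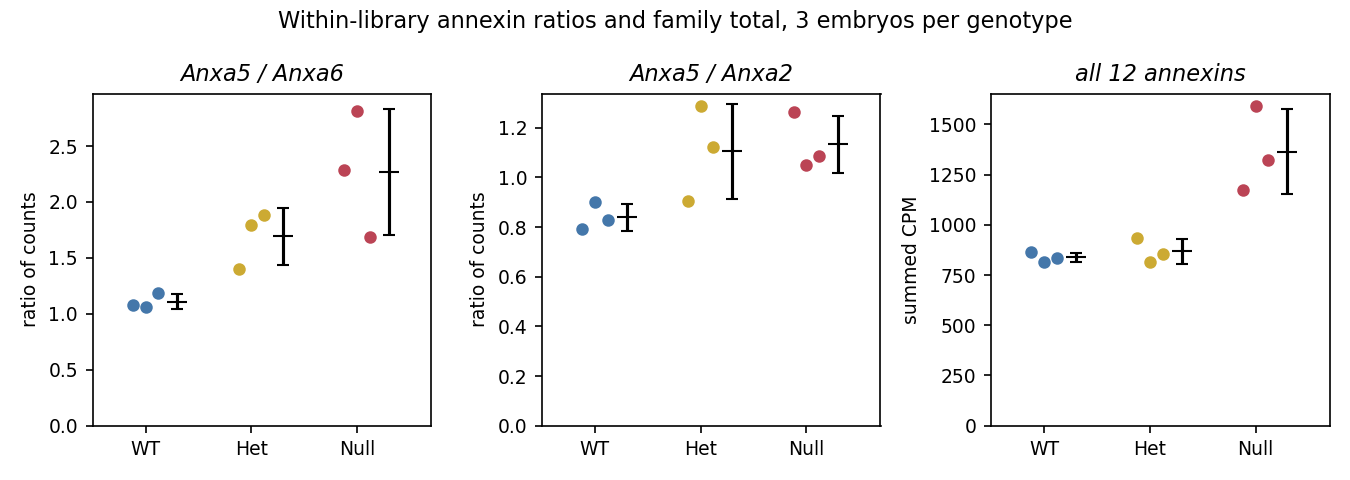
Ratio of Anxa5 to Anxa6 counts, ratio of Anxa5 to Anxa2 counts and summed CPM of all 12 annexins in each library (points), with mean and SD of 3 libraries per genotype (bars). Both ratios are already above WT in the heterozygotes, whereas the summed level is higher in the null libraries alone (1175 to 1591 CPM).

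Genes whose products work with annexins were described as a second list. Of 23 partner, membrane repair and phospholipid scramblase genes listed from general knowledge, 18 were tested in null against WT, 9 had a positive log2 fold change, 0 were called as higher and 1 was called as lower, against 0.920% and 0.786% of all genes. An unadjusted p under 0.05 was found for 2 of the 18, and for 12.2% of all genes. Their median log2 fold change was 0.02. S100a10, the light chain of the Anxa2 complex, was at 39.9, 37.3 and 29.5 CPM in WT, 31.8, 28.0 and 31.1 CPM in heterozygote and 30.3, 45.5 and 43.3 CPM in null ducts. These S100a10 values overlapped between null and WT (log2 fold change 0.16, SE 0.178, edgeR adjusted p = 0.776). S100a11, the partner of Anxa1, was at 22.7, 20.7 and 18.3 CPM in WT, 19.5, 17.4 and 17.7 CPM in heterozygote and 20.4, 28.6 and 26.6 CPM in null ducts. It did not overlap between null and heterozygote, without passing (log2 fold change 0.47, SE 0.143, edgeR adjusted p = 0.285). S100a6, which binds Anxa11 among others, held 13 to 37 counts per library, and S100a4 was at 0 except for 2 counts in WT 3. Ahnak, a scaffold of the Anxa2 and S100a10 complex, was at 44.8 to 65.5 CPM in 8 libraries and at 151 CPM in null 3. Fpr2, a receptor of Anxa1, had no counts in any library.

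Pla2g4a, the cytosolic phospholipase A2 that annexins can inhibit, was the called partner. Its level was 13.0 CPM in each WT library, 10.5, 9.18 and 10.7 CPM in heterozygote and 7.51, 8.35 and 8.33 CPM in null ducts, so the genotypes formed descending steps without overlap. With 329 to 382 counts, the WT values lay closer together than counting error alone would place them, and nothing is read from that. The log2 fold change of Pla2g4a was -0.69 in null against WT (SE 0.128, edgeR adjusted p = 0.0446), -0.36 in heterozygote against WT (SE 0.104, edgeR adjusted p = 0.166) and -0.33 in null against heterozygote (SE 0.142, edgeR adjusted p = 0.436). The fold change of Pla2g4a in null against WT moved little when an embryo was left out (log2 of -0.71 to -0.64), but its call was mostly lost. The edgeR adjusted p for null against WT stayed under 0.05 only without null 3 (0.0483). Without WT 1, 2 or 3 it was 0.209, 0.222 and 0.171, without null 1 or 2 it was 0.116 and 0.0702, and with only the low-mesenchyme libraries it was 0.585. In heterozygote against WT, 0 of 18 partner genes tested were called by edgeR (0.151% of all genes) and 2 had an unadjusted p under 0.05 (13.1% of all genes). In null against heterozygote 0 of 19 were called (0.615% of all genes) and 3 had an unadjusted p under 0.05 (11.4% of all genes). DESeq2 also called 0 in both.

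**Figure D5:**
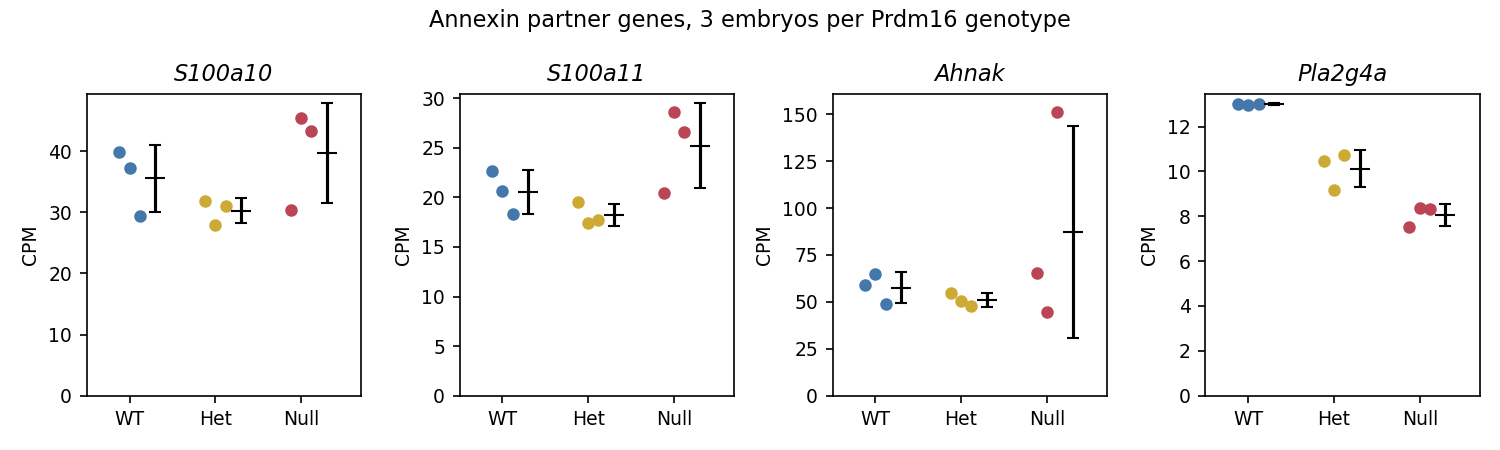
CPM of the annexin partner genes S100a10, S100a11, Ahnak and Pla2g4a in each library (points), with mean and SD of 3 libraries per genotype (bars). Pla2g4a descends from 13.0 CPM in WT to 7.51 to 8.35 CPM in null ducts, and Ahnak is set apart by the single null 3 library at 151 CPM.

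Genes with a pattern most like that of the leading members were taken as those with the highest Pearson correlation in log2 CPM over the 9 libraries, among 10353 genes with a mean of at least 10 CPM. For Anxa5 these were Gstm1 (r = 0.992), Tmem252 (r = 0.990) and Gna14 (r = 0.984). The mean level of Gstm1 was 17.6 CPM in WT and 33.8 in null ducts, that of Tmem252 25.3 and 41.7, and that of Gna14 13.0 and 36.9. After removing the genotype means the correlations were 0.828, 0.828 and 0.761. For Anxa2 they were Sparc (r = 0.992), Cd81 (r = 0.976) and Ptp4a3 (r = 0.971), with 0.974, 0.927 and 0.887 after removing the genotype means. The mean level of Sparc was 1939 CPM in WT and 2512 in null ducts, that of Cd81 196 and 235, and that of Ptp4a3 23.2 and 28.7, and none of these 3 was called in null against WT. The correlated genes share the same 9 libraries and their scaling, and the values are given as a description.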

How the data were processed

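Bulk RNA was measured in 9 libraries. TruSeq mRNA libraries were read as single ends of 50 bases and aligned to mm10 by the authors. The values the authors deposited are unnormalized whole-number counts for each Ensembl gene. The submitters' processing notes name cutadapt 1.13, STAR, HTSeq 0.6.1p1 and DESeq2. The strand setting of the counting and its annotation release are not given in the sources used here, so reads of overlapping genes may be mixed. Symbols and mm10 positions were taken from GENCODE vM21 (54165 of 54232 genes). All 37 mitochondrial genes were at 0.

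Groups came from the labelled genotypes. Each pair of genotypes (6 libraries) was tested with edgeR 4.0.16 in R 4.3.3, with TMM, filterByExpr (minimum count 10), the quasi-likelihood test and Benjamini-Hochberg adjustment over all genes tested. Alternatives were DESeq2 1.42.0, limma-voom (limma 3.58.1), other scalings, filters and thresholds, a joint fit, the replicate number as a block and leaving out each embryo. In simulated counts of null against WT, 195 of 200 changed genes were recovered among 16915, with 8 false calls. The simulation was set to less spread between libraries than the data, whose fitted coefficient of variation was 0.224 in this comparison. It changed only well-counted genes, by folds larger than that of Anxa2. The recovery therefore checks the code and does not give the power in these data. No pair of replicates agreed within sampling noise (chi-square per gene 5.70 to 68.8).

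Named genes were all 8 members, the other annexins, Prdm16, called partners, 4 S100 genes and, for the 2 members with the largest null against WT fold change, the 3 most correlated genes. Genes of the duct epithelium and duct region marker lists were also named. Partners whose values set a range or whose counts were at 0 (Ahnak, Fpr2) and the overlapping genes were named after their values were seen. The same holds for single genes of the other marker lists (Stmn2, Isl1, Col2a1, Acan, Matn1, Sox10 and Erbb3). The members and lists were chosen with earlier results of these data known. Protein sequences were not used here.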

Additional observations from a re-analysis of the deposited data

How the results depend on the processing

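The Anxa5 call in null against WT kept its direction and its side of the thresholds in all 9 alternatives with all or chosen libraries and in all 6 that left out an embryo. Members called, 1 in null against WT, 0 in heterozygote against WT and 1 in null against heterozygote, became 2, 1 and 2 with DESeq2 and also without a filter on low counts. They were 2 in null against WT with all 9 libraries in one fit, 1 in heterozygote against WT with the adjusted p alone, and 0 in null against heterozygote with an absolute log2 fold change over 1. Leaving out embryos gave 1, 0 to 1 (1 without WT 3) and 0 to 1 (0 without any of the 3 heterozygotes). Called partners in null against WT fell from 1 to 0 without the filter, with a fold threshold of 1 and in the low-mesenchyme libraries, and ranged from 0 to 1 when an embryo was left out.

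Of all genes, 293 were called in null against WT, 26 in heterozygote against WT and 105 in null against heterozygote. These counts became 609, 297 and 361 with DESeq2, 476, 684 and 366 without the filter, 468, 0 and 164 with all 9 libraries in one fit, and 167, 9 and 62 with a fold threshold of 1. In heterozygote against WT they were 11 with limma-voom and 45 with the adjusted p alone. The low-mesenchyme libraries gave 83 in heterozygote against WT and 182 in null against heterozygote, and leaving out an embryo 68 to 446, 0 to 505 and 12 to 182. The cause was not tested.

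With the replicate number as a block, members called were 1, 0 and 0, the called partner was lost (0), and all genes called were 133, 197 and 52. Same-numbered libraries did not deviate together (9 pairs, r of -0.284 to 0.202), and 2 of 9 libraries correlated best with their own number, so the numbers do not pair the embryos. Under the block the Anxa5 adjusted p of null against heterozygote was 0.0661.

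Signs turned only for values near 0 or of low counts. In heterozygote against WT, Anxa2 was 0.0012 and became -0.00021 with DESeq2, -0.00036 with RLE scaling, -0.010 with limma-voom, -0.0070 with the block and -0.024 in the low-mesenchyme libraries, and -0.12 to 0.10 without an embryo. In the low-mesenchyme libraries, chosen after seeing the data, the lone WT library is assumed to vary like the others. There Anxa1 was 0.34, Anxa4 -0.078 and Anxa11 0.027 in null against WT, Anxa11 0.080 in heterozygote against WT, and Anxa1 0.051 and Anxa11 -0.057 in null against heterozygote. Without an embryo, null against WT gave -0.33 to 0.25 for Anxa1, -1.13 to 0.28 for Anxa3 and -0.24 to 0.031 for Anxa11, heterozygote against WT -0.24 to 0.32 for Anxa1, and null against heterozygote -0.34 to 0.18 for Anxa1 and -0.057 to 0.22 for Anxa11. Anxa3 has no value under a mean count over 100. The 3 embryos per genotype and the low counts of Anxa3 limit the precision.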
